A study of Mus musculus with 28 samples.

Results

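The genes described here make, break down and regulate polyamines: Oaz3, Oaz2, Azin1, Odc1, Sat1, Srm and Smox. They were found as the probe sets whose annotation names 1 of these 7 symbols, which gave 19 of the 45037 non-control probe sets on the array, or 7 of the 18193 genes named by a probe set of 1 symbol. Oaz3 had 6 of them, Oaz2, Azin1 and Odc1 had 3 each, Smox had 2, and Sat1 and Srm had 1 each. RNA was measured on 28 one-colour arrays from adult male C57BL/6 mice, either null for GRTH (KO) or wild type (WT); GRTH is a testicular RNA helicase encoded by Ddx25. The groups were total testicular polysomes (3 KO and 3 WT arrays), spermatocytes (4 KO and 4 WT), round spermatids (3 KO and 3 WT), Leydig cells (2 KO and 2 WT) and WT testicular polysomes precipitated with GRTH antibody (GRTH IP, 2 arrays) or with IgG (IgG IP, 2 arrays). Polysomes came from sucrose gradients and cells from centrifugal elutriation, a separation by size that does not remove every other cell type. Males without GRTH are known to be sterile, with spermatid development stopping before elongation, so the KO testis lacks the later spermatids that a WT testis holds.

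Polyamines are small positively charged molecules that bind RNA and chromatin. Ornithine decarboxylase (Odc1) makes putrescine, spermidine synthase (Srm) adds an aminopropyl group to it, and the acetyltransferase Sat1 and spermine oxidase (Smox) act in the return direction. Antizymes such as Oaz2 bind ornithine decarboxylase and send it to the proteasome, antizyme inhibitors such as Azin1 hold antizyme back, and antizyme production depends on a polyamine-stimulated ribosomal frameshift. Oaz3 is the antizyme of the testis and is known from haploid germ cells.

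Each array was scaled to a trimmed mean signal of 500, and differences are log2(signal + 16) with their SE, tested with limma at a Benjamini-Hochberg adjusted p under 0.05 over 22519 probe sets in each comparison. The labels do not tie the arrays of a group to different animals, and a p-value here measures only how far these samples spread, which may be technical. The free-text description of 4 arrays (KO polysome array 1, WT polysome arrays 1 and 2, IgG IP array 1) names another group than their title, and the titles were followed. The Leydig arrays of 1 genotype were the closest of any group (SD of their log2 differences 0.284 in KO and 0.308 in WT), and spermatocyte arrays 1 and 2, spermatocyte arrays 3 and 4, and round spermatid arrays 1 and 2 lay closer to each other (0.325 to 0.419) than to the rest of their group (0.442 to 0.562). Ddx25 was lower in KO samples of every preparation, by -4.35 ± 0.28 in polysome RNA (adjusted p = 0.00143) and by -2.26, -1.97 and -1.99 in spermatocytes, round spermatids and the Leydig fraction. Germ cell markers were also present in the Leydig samples, where the summed signal of 16 elongating spermatid markers was 160386 to 162963 in KO and 232499 to 236985 in WT, so these samples are called the Leydig fraction. The summed signal of the 6 measured Leydig markers was 57168 to 58074 in the KO Leydig fraction and 30945 to 30999 in the WT one, against 6272 to 6865 in WT spermatocytes; Insl3 and Lhcgr, also on that list, had no probe set of 1 symbol.

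Oaz3 was lower in KO than in WT samples of all 4 preparations, with the largest difference in polysome RNA. The probe sets 1437011_x_at and 1437010_a_at were its bright ones; the x in a name marks probes that can match other transcripts, and the other probe set gave the same pattern. In polysome RNA, 1437011_x_at gave 3341, 3618 and 1843 on the KO arrays, against 23535, 47973 and 27149 on the WT arrays. Every KO value lay far below every WT value, and WT array 2 was the highest of the 6. The difference was -3.47 ± 0.36, an 11.1-fold lower signal in KO (adjusted p = 0.00254), and that of 1437010_a_at was -3.14 ± 0.38 (adjusted p = 0.00419). These 2 of the 15 polyamine probe sets tested in polysome RNA passed the threshold, both lower, where 2.4% of all probe sets did and 2.23% did so lower. The median difference was -0.03 over the polyamine probe sets and 0.16 over all probe sets tested. Leaving out any 1 array kept both calls. Leaving out the 3 polysome arrays whose description names another group left differences of -3.39 for 1437011_x_at and -3.06 for 1437010_a_at. That fit has only 1 WT array, so its calls are not given. On the deposited, unscaled values neither passed (-3.85 and -3.52, adjusted p = 1 each).

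In purified cells the fall of Oaz3 was smaller. KO spermatocytes gave 5363, 5331, 5244 and 5224 at 1437011_x_at, against 13660, 12755, 11323 and 10912 in WT spermatocytes. The groups did not overlap, and the KO arrays lay within a narrow band (-1.19 ± 0.08, 2.29-fold lower, adjusted p = 2.64e-05). KO round spermatids gave 22924, 21103 and 17935, against 43776, 38546 and 29655 in WT round spermatids. Again no value was shared between the groups (-0.84 ± 0.17, adjusted p = 0.00852), and 1437010_a_at differed by -1.02 ± 0.17 (adjusted p = 0.00437). With the 2 similar round spermatid arrays of each genotype averaged, the adjusted p was 0.0546 for 1437011_x_at. The KO Leydig fraction gave 10648 and 10828, against 19178 and 19420 in the WT Leydig fraction (-0.84 ± 0.03, adjusted p = 0.000515).

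The larger fall in polysome RNA was tested against that in round spermatids as a difference of differences, which was -2.63 ± 0.43 for 1437011_x_at (adjusted p = 0.0258) and -2.11 ± 0.46 for 1437010_a_at (adjusted p = 0.0715). The call at 1437011_x_at was 1 of 14 polyamine probe sets tested, against 0.542% of all probe sets (median -0.17 over the polyamine probe sets and -0.06 over all). It was lost on leaving out any of the 6 round spermatid arrays (adjusted p 0.0605 to 0.101) and with round spermatid arrays 1 and 2 averaged (0.257). The polysome samples were of whole testes and the round spermatids were purified, so preparation and cell mixture cannot be told apart in this difference. Between spermatocytes and round spermatids the KO effect on Oaz3 differed by 0.35 ± 0.18 (adjusted p = 0.154).

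Markers of elongating spermatids moved with Oaz3. Of 16, 14 were lower in KO polysome RNA, 15 in KO spermatocytes, 12 in KO round spermatids and 15 in the KO Leydig fraction, and 5 of 16 passed with a lower difference of differences between polysome RNA and round spermatids (median -1.77). Over all probe sets 2.23%, 11.4%, 14.9% and 25.3% were lower in the same order, and 0.377% had a lower difference of differences. All marker lists used here were chosen with earlier results of these data known, so their counts are descriptions and not independent tests. The summed signal of the 16 markers was 50449 to 85463 in KO polysome RNA and 276665 to 527776 in WT polysome RNA. Their part in the result for Oaz3 was not tested. In such bulk samples, fewer cells of a type and less RNA per cell cannot be told apart.

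**Figure D1:**
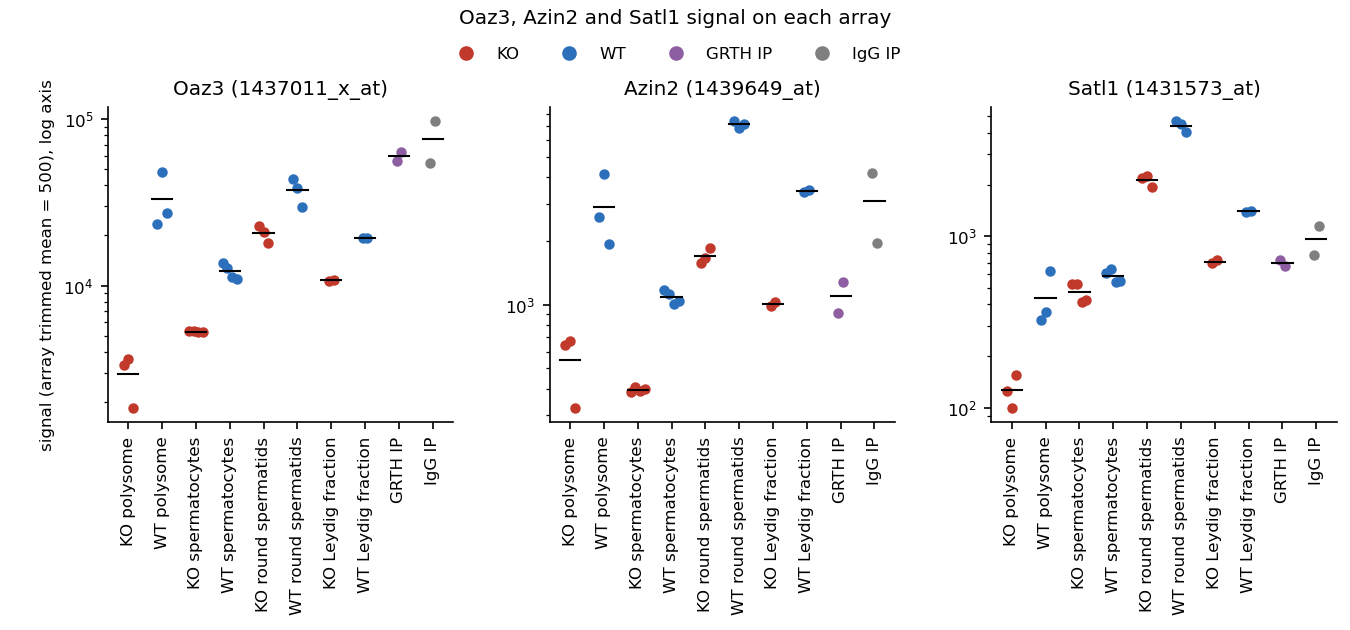
Signal of Oaz3, Azin2 and Satl1 on each of 28 arrays, on log axes, with KO left of WT for each preparation and GRTH IP left of IgG IP; points are arrays and bars are group means. Oaz3 reached 1843 to 3618 on the KO polysome arrays and 23535 to 47973 on the WT ones, and Azin2 and Satl1 were also below their WT arrays in KO polysome RNA.

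Across the 10 groups the mean Oaz3 signal at 1437011_x_at was 59807 ± 5340 in the GRTH IP and 75608 ± 30001 in the IgG IP (SD, n = 2 each), which overlapped and were the highest of the 10. WT round spermatids (37325 ± 7139, n = 3) and WT polysome RNA (32886 ± 13190, n = 3) came next and also overlapped each other. KO round spermatids (20654 ± 2525, n = 3) overlapped the WT Leydig fraction (19299 ± 171, n = 2). WT spermatocytes (12162 ± 1273, n = 4), the KO Leydig fraction (10738 ± 127, n = 2), KO spermatocytes (5291 ± 66.8, n = 4) and KO polysome RNA (2934 ± 955, n = 3) followed in that order with no overlap between neighbours. The genes whose 10 group means followed those of Oaz3 most closely, by Pearson correlation of log2 values, were Tnp2 (0.988), which encodes a transition protein of spermatid chromatin, Smcp (0.987), which encodes a sperm mitochondrial protein, Dbil5 (0.981), 1700042G07Rik (0.975) and Slc25a2 (0.975). These are descriptions over 10 points that share arrays and scaling, and 84 of 9096 genes had a correlation above 0.9; Tnp2 and Smcp are also on the elongating spermatid list.

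Oaz3 was higher in round spermatids than in spermatocytes in both genotypes, by 1.95 ± 0.09 in KO (adjusted p = 6.51e-07) and by 1.60 ± 0.15 in WT (adjusted p = 2.24e-05). In KO cells 4 of the 12 polyamine probe sets tested were higher and 3 lower, where 34.4% of all probe sets were higher and 41.2% lower (75.6% in all). In WT cells 7 of 14 were higher and 5 lower, where 33.4% of all probe sets were higher and 44.9% lower (78.3% in all). The median difference over the polyamine probe sets was 0.1 in KO and 0.38 in WT cells, against -0.07 and -0.16 over all probe sets.

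The remaining 4 Oaz3 probe sets were dim, with group means of at most 279. Among them 1453115_at went the other way in round spermatids, with a mean of 115 in KO and 83.4 in WT (0.39 ± 0.13, adjusted p = 0.0476). That call was lost on leaving out any of 5 arrays, namely WT round spermatid array 1, 2 or 3 or KO array 1 or 2 (adjusted p 0.0733 to 0.145). 1432571_at did not pass in the 3 comparisons of KO with WT in which it was tested, and 1454279_at and 1429341_at were below the filter on low values in all 4 of these comparisons. In the Leydig fraction 1432571_at was lower in KO by -0.91 to -0.4 under the alternatives and passed in 6 of 12. Some of these 12 leave 1 array in a group. In round spermatids it ran from -0.8 to -0.26 and passed in 1 of 16.

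Azin2 and Satl1 were the other pathway genes that fell with Oaz3. Azin2 is the antizyme inhibitor enriched in testis, and Satl1 is named for its likeness to the spermidine and spermine acetyltransferase. Azin2 gave 647, 676 and 325 on the KO polysome arrays and 2611, 4153 and 1936 on the WT ones. The groups did not overlap and the difference was -2.36 ± 0.37 (adjusted p = 0.013). In KO cells it differed from WT cells by -1.42 ± 0.06 in spermatocytes, -2.07 ± 0.09 in round spermatids and -1.75 ± 0.03 in the Leydig fraction, with adjusted p of 4.47e-06, 9.33e-05 and 0.000445. Another Azin2 probe set, 1444585_at, differed by 0.21 in polysome RNA (adjusted p = 0.846) and by 0.45 in the Leydig fraction (adjusted p = 0.0321), so the probe sets of this gene disagree. Satl1 gave 126, 100 and 156 on the KO polysome arrays and 323, 364 and 624 on the WT ones, without overlap (-1.62 ± 0.30, adjusted p = 0.0285). On the deposited, unscaled values no probe set of the array passed in polysome RNA, so neither Azin2 nor Satl1 did. Its difference was -1.05 ± 0.10 in round spermatids and -0.96 ± 0.03 in the Leydig fraction (adjusted p = 0.000654 and 0.000586), and in spermatocytes -0.31 ± 0.10 (adjusted p = 0.055).

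Of 25 further polyamine pathway genes listed, 19 had a probe set of 1 symbol. In polysome RNA 15 were tested, 0 were higher and 2 lower in KO (Azin2 and Satl1), with a median of 0.21 against 0.16 over all probe sets, of which 0.169% were higher and 2.23% lower. In spermatocytes 1 of 15 was higher and 1 lower, in round spermatids 6 of 15 higher and 2 lower, and in the Leydig fraction 10 of 16 higher and 2 lower. Over all probe sets 12.8% were higher and 11.4% lower in spermatocytes, 28.9% and 14.9% in round spermatids, and 38.9% and 25.3% in the Leydig fraction. The medians of these genes were 0.07 in spermatocytes, 0.27 in round spermatids and 0.34 in the Leydig fraction, against 0.04, 0.13 and 0.07 over all probe sets, and those lower were again Azin2 and, outside spermatocytes, Satl1. Oaz1, the broadly expressed antizyme, gave 5485, 5252 and 5479 in KO round spermatids and 3556, 3560 and 3186 in WT round spermatids. All 3 KO arrays were above all 3 WT arrays (0.65 ± 0.08, adjusted p = 0.00158). In the Leydig fraction Oaz1 gave 9539 and 9574 in KO and 7405 and 7420 in WT, again without overlap (0.37 ± 0.03, adjusted p = 0.00181), while in spermatocytes the difference was 0.09 ± 0.06 (adjusted p = 0.312) and in polysome RNA -0.10 ± 0.23 (adjusted p = 0.868). The KO effect on Oaz1 differed between round spermatids and spermatocytes by 0.57 ± 0.09 (adjusted p = 0.000542).

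Odc1, the enzyme that antizymes act on, was lower in KO round spermatids and in the KO Leydig fraction, and whether its polysome difference passed depended on the fit. In round spermatids 9 of 15 polyamine probe sets passed, 3 higher and 6 lower, where 28.9% of all probe sets were higher and 14.9% lower (43.9% in all). The median was -0.06 over the polyamine probe sets and 0.13 over all. At 1438761_a_at, Odc1 gave 11784, 11204 and 10660 in KO round spermatids and 15308, 14112 and 13110 in WT round spermatids. The groups were separate, and the differences at the 3 Odc1 probe sets were -0.34 ± 0.09, -0.62 ± 0.16 and -0.47 ± 0.11, with adjusted p of 0.0252, 0.0203 and 0.0137. The calls at 1438761_a_at and 1437711_x_at were lost without WT array 1 or 2 or KO array 2 or 3 (adjusted p 0.06 to 0.0792), and with round spermatid arrays 1 and 2 averaged none of the 3 passed (0.08 to 0.137). None passed with no filter on low values either (0.0567 to 0.0986), and with quantile normalization the difference at 1438761_a_at was -0.02 (adjusted p = 0.815).

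In polysome RNA, 1438761_a_at gave 6753, 6289 and 6095 on the KO arrays and 9523, 10110 and 10115 on the WT arrays, and 1427364_a_at gave 1064, 1293 and 843 on the KO arrays and 2370, 1844 and 1976 on the WT arrays. Neither pair of groups overlapped. The differences were -0.64 ± 0.20, -0.70 ± 0.22 and -0.95 ± 0.25 at the 3 probe sets, with adjusted p of 0.208, 0.205 and 0.111. Same-numbered polysome arrays deviated together, and with the replicate number as a block 1427364_a_at passed (adjusted p = 0.0359). In a fit of all 24 cell and polysome arrays all 3 Odc1 probe sets passed in polysome RNA (adjusted p = 4.77e-05, 0.00376 and 7.96e-05).

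In the Leydig fraction, 4 of 14 polyamine probe sets were higher and 5 lower, where 38.9% of all probe sets were higher and 25.3% lower (64.2% in all; medians -0.06 and 0.07). The Odc1 differences were -0.21 ± 0.03, -0.13 ± 0.03 and -0.69 ± 0.05 (adjusted p = 0.0106, 0.0267 and 0.00199). The last of these, at 1427364_a_at, came from 1726 and 1866 in KO and 2891 and 2921 in WT. The call at 1437711_x_at was lost without any 1 of the 4 arrays (adjusted p 0.0535 to 0.121) and its direction turned with quantile normalization (0.03), and the call at 1438761_a_at was lost without KO array 1 (0.0551). In spermatocytes no Odc1 probe set passed (0.02, -0.09 and -0.16), although 1427364_a_at did with the replicate number as a block (adjusted p = 0.033). Odc1 was higher in WT round spermatids than in WT spermatocytes at each of its probe sets (0.48, 0.61 and 0.71), and in KO cells the same differences were 0.12, 0.08 and 0.40, of which the last passed (adjusted p = 0.00716). The WT call at 1437711_x_at was lost without WT round spermatid array 1 or 2 (adjusted p 0.0634 and 0.06), and with quantile normalization the WT difference at 1438761_a_at was 0 (adjusted p = 0.974). Across the 10 groups the highest mean of 1438761_a_at was in WT round spermatids (14177 ± 1100, n = 3) and the lowest in KO polysome RNA (6379 ± 338, n = 3), and each group between them overlapped the next one down.

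Srm, spermidine synthase, was higher in KO samples of the 3 cell preparations. KO spermatocytes gave 398, 435, 400 and 459, against 350, 354, 317 and 352 in WT spermatocytes. All 4 KO values were above all 4 WT values (0.29 ± 0.07, adjusted p = 0.0141), and 4 of 13 polyamine probe sets passed here, 2 higher and 2 lower, where 12.8% of all probe sets were higher and 11.4% lower (24.3% in all; medians -0.05 and 0.04). KO round spermatids gave 359, 356 and 416, against 204, 239 and 249 in WT round spermatids, again without overlap (0.67 ± 0.11, adjusted p = 0.00394). The KO Leydig fraction gave 556 and 530, against 377 and 370 in the WT Leydig fraction (0.52 ± 0.04, adjusted p = 0.00196). In polysome RNA the arrays overlapped, with 720, 869 and 711 in KO and 558, 735 and 395 in WT (0.47 ± 0.27, adjusted p = 0.473), though Srm passed there in the fit of 24 arrays (0.0313). Leydig markers moved with Srm: of 6 tested, 4 were higher in KO spermatocytes, 4 in KO round spermatids and 6 in the KO Leydig fraction, with none lower. Over all probe sets 12.8%, 28.9% and 38.9% were higher in the same order. Other lists moved too. In KO round spermatids 4 of 9 spermatocyte and 4 of 6 spermatogonia markers were higher with none lower, while 5 of 7 Sertoli markers were lower. In the KO Leydig fraction all 6 macrophage markers were higher, and of 9 spermatocyte markers 1 was higher and 4 lower. Over all probe sets 14.9% were lower in round spermatids and 25.3% in the Leydig fraction. The summed signal of the Leydig markers was 8528 to 9371 in KO and 6272 to 6865 in WT spermatocytes. In round spermatids it was 1281 to 1473 in KO and 868 to 932 in WT. Srm was also higher in the WT Leydig fraction than in the mean of both WT germ cell fractions, by 0.39 (adjusted p = 0.00591). Its mean was 374 in the WT Leydig fraction, 343 in WT spermatocytes and 231 in WT round spermatids, and 423 in KO spermatocytes. The part of any of these cell types in the Srm result was not tested. The spermatocyte call was lost with the similar arrays averaged (adjusted p = 0.201), with median centring (0.112), with no filter on low values (0.0586) and in a fit of all 24 cell and polysome arrays (0.241), which also ended the Leydig fraction call (0.0634). The KO effect on Srm was larger in round spermatids than in spermatocytes by 0.38 ± 0.12 (adjusted p = 0.0274), a difference lost without any of 6 single arrays (adjusted p 0.0502 to 0.0708): WT spermatocyte array 2 or 4, KO spermatocyte array 1 or 3, WT round spermatid array 1 or KO round spermatid array 3. It also did not pass with the similar spermatocyte arrays averaged (0.123) or with all 24 arrays in 1 fit (0.24).

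**Figure D2:**
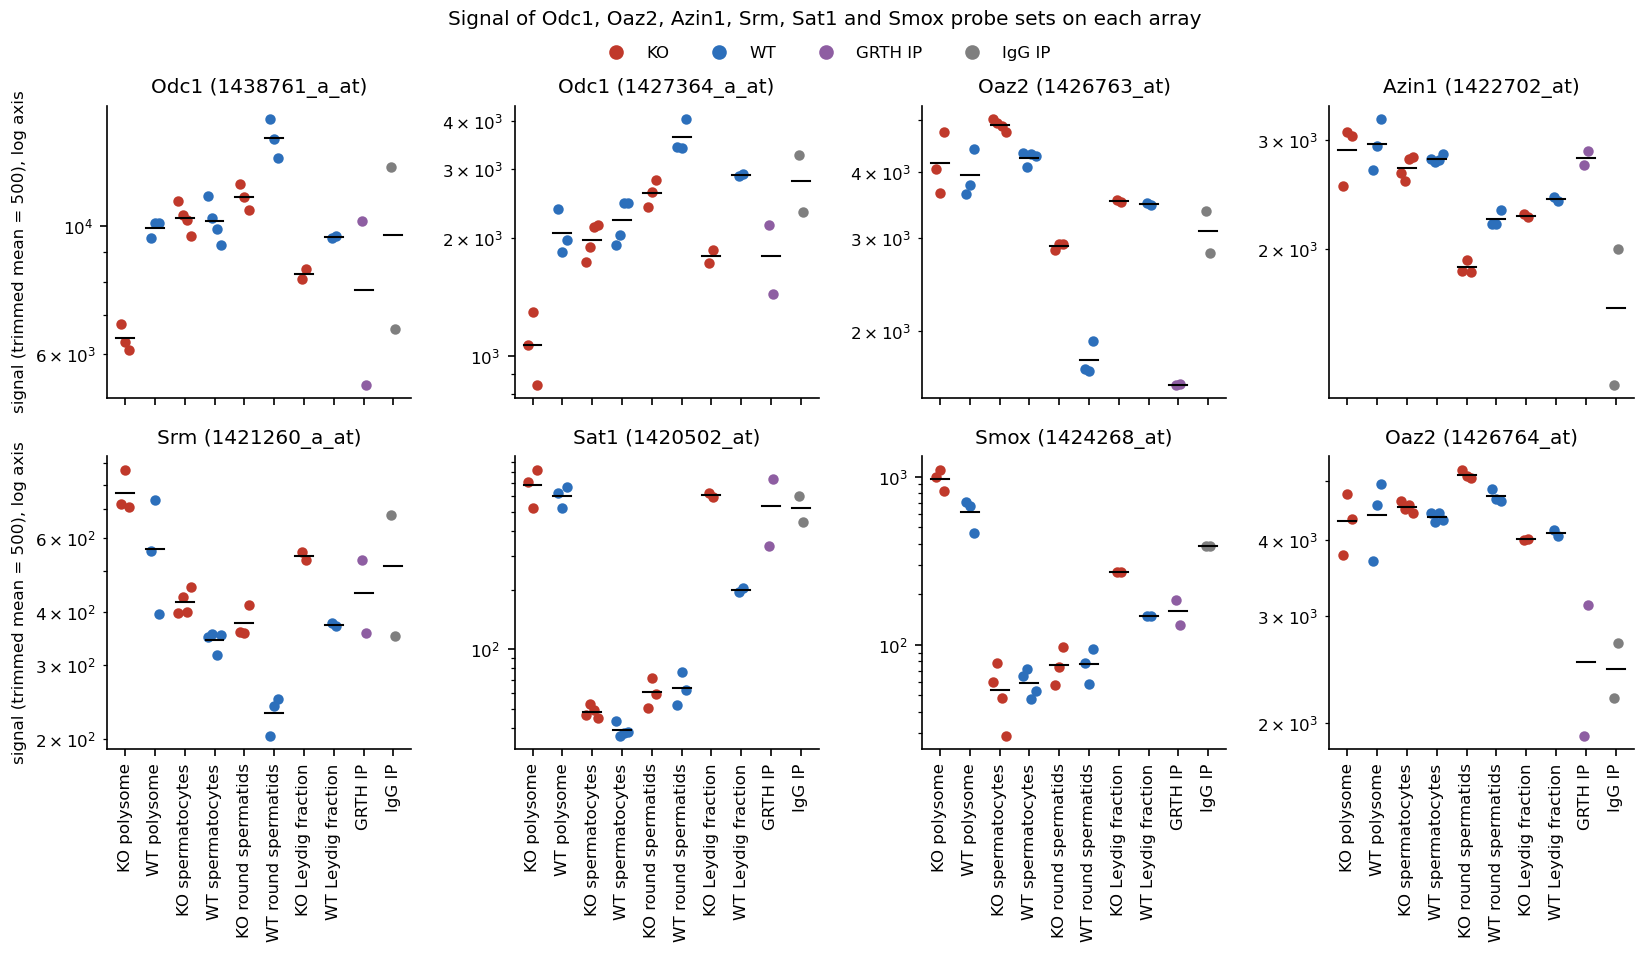
Signal of Odc1, Oaz2, Azin1, Srm, Sat1 and Smox probe sets on each of 28 arrays, on log axes, with KO left of WT for each preparation and GRTH IP left of IgG IP; points are arrays and bars are group means. Sat1 lies between 36.5 and 76.5 in all spermatocyte and round spermatid arrays and between 521 and 820 in all polysome arrays.

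Oaz2, an antizyme present in many tissues, was higher in KO round spermatids at 1 of its probe sets. At 1426763_at, KO round spermatids gave 2845, 2924 and 2920, against 1699, 1685 and 1921 in WT round spermatids. The groups were well apart (0.71 ± 0.08, adjusted p = 0.00132), and the call was kept in all 16 alternatives run. At 1426764_at, KO round spermatids gave 5224, 5101 and 5062 and WT round spermatids 4854, 4672 and 4634, also apart but by 0.12 ± 0.07 (adjusted p = 0.215). The dim 1442541_at went the other way without overlap, with a mean of 36.7 in KO and 105 in WT round spermatids. It was below the filter on low values in this comparison. In KO round spermatids 4 of 9 spermatocyte markers, 4 of 6 spermatogonia markers and 4 of 6 Leydig markers were higher too, with none lower. Over all probe sets 28.9% were higher and 14.9% lower in this comparison. Other lists went differently: of 7 Sertoli markers tested 0 were higher and 5 lower, and of 6 macrophage markers 0 passed. Of 8 round spermatid markers 2 were higher and 4 lower. The summed signal was 55214 to 65397 in KO and 50184 to 64593 in WT round spermatids for the spermatocyte list, and 3280 to 3569 in KO and 2239 to 2552 in WT for the spermatogonia list. Their part in the Oaz2 result was not tested. In spermatocytes 1426763_at differed by 0.20 ± 0.05 (adjusted p = 0.0147), which did not pass with the similar arrays averaged (0.319), with median centring (0.232), with no filter on low values (0.0803) or with all 24 arrays in 1 fit (0.191). The KO effect at 1426763_at was larger in round spermatids than in spermatocytes by 0.51 ± 0.08 (adjusted p = 0.000641), and 3 of 13 polyamine probe sets had a higher and 2 a lower difference of differences, where 22% of all probe sets had a higher and 9.43% a lower one (31.4% in all; medians 0.12 and 0.11). With the similar arrays of both cell types averaged its adjusted p was 0.104.

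The Oaz2 probe sets also disagreed along germ cell development. From WT spermatocytes to WT round spermatids, 1426763_at was lower by -1.26 ± 0.07 (adjusted p = 1.65e-06), 1426764_at differed by 0.11 ± 0.06 (adjusted p = 0.118) and the dim 1442541_at was higher by 1.09 ± 0.27 (adjusted p = 0.00672). In KO cells the fall at 1426763_at was -0.75 ± 0.05 (adjusted p = 7.03e-06). Which transcript each probe set reads was not tested.

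Azin1, the antizyme inhibitor of most tissues, was lower in round spermatids than in spermatocytes at its probe sets 1422702_at and 1450714_at in both genotypes. At 1450714_at, KO round spermatids gave 218, 202 and 175, against 697, 715, 701 and 801 in KO spermatocytes, and WT round spermatids gave 128, 171 and 161, against 635, 672, 717 and 761 in WT spermatocytes. No round spermatid array came near a spermatocyte array, and the differences were -1.80 ± 0.09 in KO (adjusted p = 1.07e-06) and -2.08 ± 0.11 in WT (adjusted p = 1.09e-06). At 1422702_at they were -0.53 ± 0.06 in KO and -0.32 ± 0.06 in WT, and at 1430984_at -0.21 ± 0.25 in KO (adjusted p = 0.468) and -1.11 ± 0.17 in WT (adjusted p = 0.000464).

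Between KO and WT, 1 Azin1 probe set passed in round spermatids and another in the Leydig fraction. 1422702_at was lower in KO round spermatids, with 1843, 1922 and 1838 against 2196, 2198 and 2312 in WT round spermatids (-0.26 ± 0.07, adjusted p = 0.029), a call lost without WT array 1 or 2 or any KO array (adjusted p 0.068 to 0.0885). 1450714_at was higher in the KO Leydig fraction, with 593 and 612 against 474 and 495 in the WT Leydig fraction (0.31 ± 0.04, adjusted p = 0.00646). With median centring that difference was 0.13 (adjusted p = 0.0567), with quantile normalization it was also 0.13 (0.066), and in the fit of 24 arrays the adjusted p was 0.296. In polysome RNA the 3 probe sets differed by -0.03 ± 0.22, 0.38 ± 0.26 and -0.15 ± 0.29, with adjusted p of 0.96, 0.533 and 0.85.

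**Figure D3:**
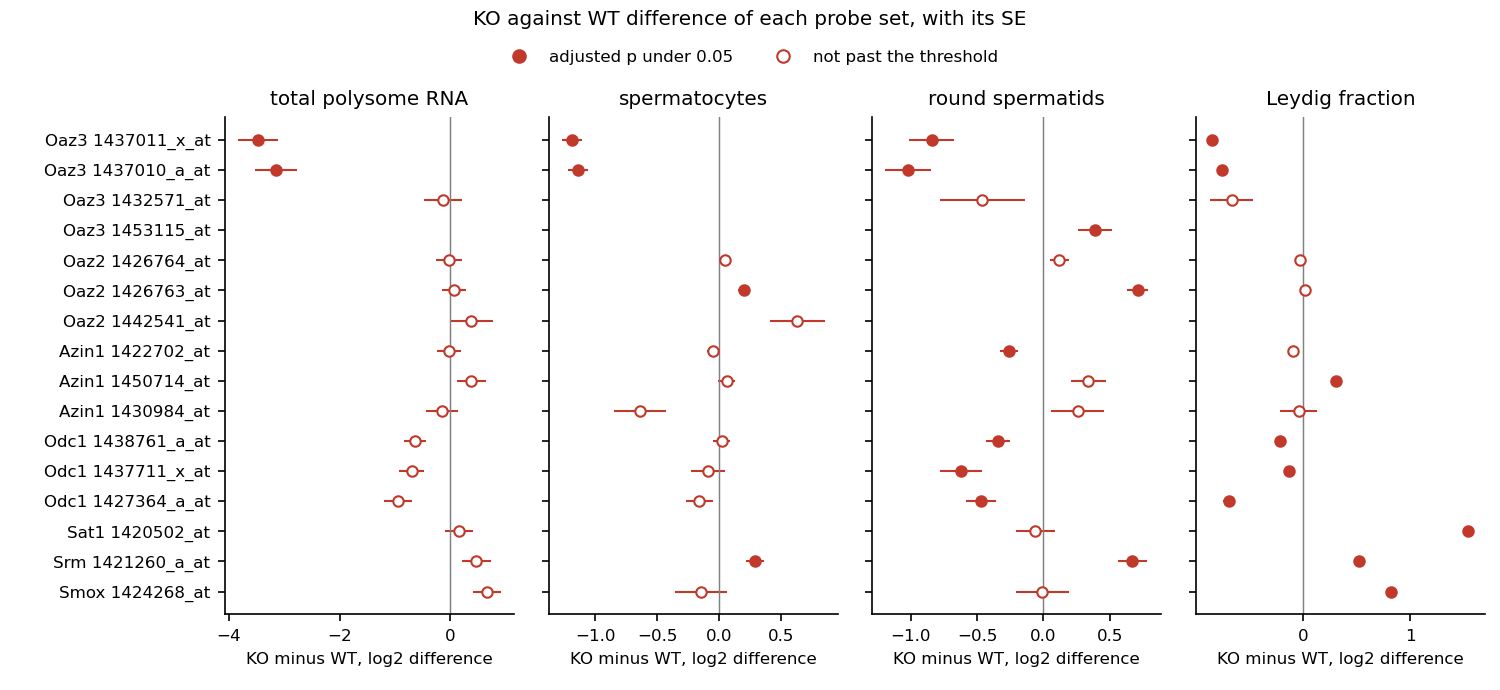
Difference between KO and WT in log2(signal + 16) for each polyamine and antizyme probe set tested, in polysome RNA, spermatocytes, round spermatids and the Leydig fraction; bars are SE, filled points passed an adjusted p of 0.05, and each panel has its own scale. The bright Oaz3 probe sets are lower in all 4 panels, and Sat1 has the largest rise, 1.53 in the Leydig fraction.

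Sat1 and Smox, the enzymes that act back along the pathway, were high in the Leydig fraction and in polysome RNA and low in purified germ cells. Values given for Smox are those of its brighter probe set, 1424268_at. The dim Smox probe set 1446509_at was below the filter on low values between KO and WT, and its means were lower in KO polysome RNA and Leydig fraction. They were 29.8 in KO and 50.1 in WT polysome RNA, where arrays overlapped, and 1.19 in KO and 5.06 in WT Leydig fractions. Sat1 averaged 611 ± 20.9 in the KO Leydig fraction and 202 ± 6.16 in the WT Leydig fraction (SD, n = 2 each), against 38.8 ± 3.10 in WT spermatocytes and 63.6 ± 12.2 in WT round spermatids. The WT Leydig fraction exceeded the mean of both WT germ cell fractions by 1.73 ± 0.11 for Sat1 (adjusted p = 8.41e-06) and by 0.99 ± 0.16 for Smox (adjusted p = 0.00156). Of 15 polyamine probe sets 6 were higher and 2 lower in that comparison, where 24.6% of all probe sets were higher and 18% lower (42.6% in all; medians 0.04 and 0.01). WT polysome RNA exceeded the same mean by 3.23 ± 0.13 for Sat1 and 2.91 ± 0.18 for Smox (adjusted p = 4.32e-08 and 4.42e-07), and here 10 of 15 passed, 6 higher and 4 lower, where 40.6% of all probe sets were higher and 22.7% lower (63.4% in all; medians 0.44 and 0.22). Both calls were kept in all 21 alternatives run, with differences of 1.77 to 3.50 for Sat1 and 1.42 to 3.20 for Smox. The other polyamine probe sets higher in WT polysome RNA (Oaz3 1437011_x_at, Oaz2 1426763_at, Azin1 1450714_at and Srm) had negative differences on the deposited, unscaled values. Markers of other somatic cells were high in WT polysome RNA too: the summed signal of the Sertoli list was 33266 to 62020 there, against 1537 to 1618 in WT spermatocytes and 2505 to 2693 in WT round spermatids, and its part was not tested.

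In the Leydig fraction both genes were higher in KO. Sat1 gave 626 and 596 in KO and 197 and 206 in WT, a 2.88-fold higher signal in KO (1.53 ± 0.04, adjusted p = 0.000466). Smox gave 273 on each KO array and 148 on each WT array (0.82 ± 0.02, adjusted p = 0.000485). Each gene's KO arrays were above its WT arrays; in a fit of all 24 cell and polysome arrays the adjusted p was 1.5e-05 for Sat1 and 0.0512 for Smox. All 6 measured Leydig markers and all 6 macrophage markers were also higher in the KO Leydig fraction, where 38.9% of all probe sets were higher and 25.3% lower. The rise was not limited to these lists. Of 6 spermatogonia markers 3 were higher and 1 lower, and of 7 Sertoli markers tested 3 were higher and 2 lower. The summed macrophage signal was 6298 to 6351 in KO and 2646 to 2715 in WT. The part of these cells in the Sat1 and Smox result was not tested.

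Where tested in germ cells and polysome RNA, neither gene passed between KO and WT, except Smox in polysome RNA in the fit of 24 arrays (adjusted p = 0.0421). Sat1 gave 709, 525 and 820 on the KO polysome arrays and 622, 521 and 673 on the WT ones (0.16 ± 0.25, adjusted p = 0.811). Smox gave 994, 1101 and 824 on the KO polysome arrays and 711, 668 and 464 on the WT ones. The Smox arrays did not overlap, but the difference of 0.66 ± 0.25 had an adjusted p of 0.284. In round spermatids the differences were -0.06 ± 0.15 for Sat1 and -0.01 ± 0.20 for Smox, and in spermatocytes that of Smox was -0.15 ± 0.21. Sat1 was below the filter on low values in spermatocytes and was not tested there. Its 4 KO spermatocyte arrays (44.9 to 52.7) were all above its 4 WT ones (36.5 to 43.4).

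Promoter sequence was matched by symbol for Oaz2, Odc1, Sat1 and Smox, 4 of the 7 genes; those of Sat1 and Smox, which were higher together in the KO Leydig fraction and in WT polysome RNA, and of Odc1, which was lower in the KO Leydig fraction, are shown to set them side by side. The windows are from RefSeq on GRCm38.p6 and run 5′ to 3′ along the gene's strand: Sat1 at chrX:155216400-155216699 on the minus strand, Smox at chr2:131491612-131491911 on the plus strand and Odc1 at chr12:17544623-17544922 on the plus strand. Capitals mark GGGCGG on either strand, overlapping copies included.
Sat1 promoter: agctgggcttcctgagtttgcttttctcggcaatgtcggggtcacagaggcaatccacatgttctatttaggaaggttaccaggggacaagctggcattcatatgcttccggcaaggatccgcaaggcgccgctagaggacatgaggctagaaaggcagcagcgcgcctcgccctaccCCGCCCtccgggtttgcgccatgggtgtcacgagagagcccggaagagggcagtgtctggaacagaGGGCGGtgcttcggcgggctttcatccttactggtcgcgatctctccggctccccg
Smox promoter: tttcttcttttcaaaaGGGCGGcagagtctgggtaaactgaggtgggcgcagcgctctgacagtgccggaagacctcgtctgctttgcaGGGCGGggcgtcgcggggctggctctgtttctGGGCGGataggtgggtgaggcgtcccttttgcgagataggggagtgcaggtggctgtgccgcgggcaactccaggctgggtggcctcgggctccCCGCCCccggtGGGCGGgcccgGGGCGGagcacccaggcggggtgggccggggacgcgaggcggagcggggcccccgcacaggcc
Odc1 promoter: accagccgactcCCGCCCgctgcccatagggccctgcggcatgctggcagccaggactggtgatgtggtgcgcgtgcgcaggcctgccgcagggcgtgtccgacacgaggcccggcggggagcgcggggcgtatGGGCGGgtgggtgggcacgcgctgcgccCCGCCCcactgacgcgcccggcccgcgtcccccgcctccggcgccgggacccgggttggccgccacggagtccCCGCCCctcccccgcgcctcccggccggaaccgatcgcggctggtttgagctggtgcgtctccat
GGGCGG occurred 2 times in the Sat1 window, 6 times in the Smox window and 4 times in the Odc1 window, and 35.7% of 32851 promoter windows of 300 bases held it at least 1 time. TGACG was found 1 time in the Odc1 window, starting at position -79 from the start site, and in 20.8% of all windows. CACGTG and TATAAA, searched on both strands, were in none of these 3 windows and in 7.15% and 13.6% of all windows. These matches describe letters and not bound sites.

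**Figure D4:**
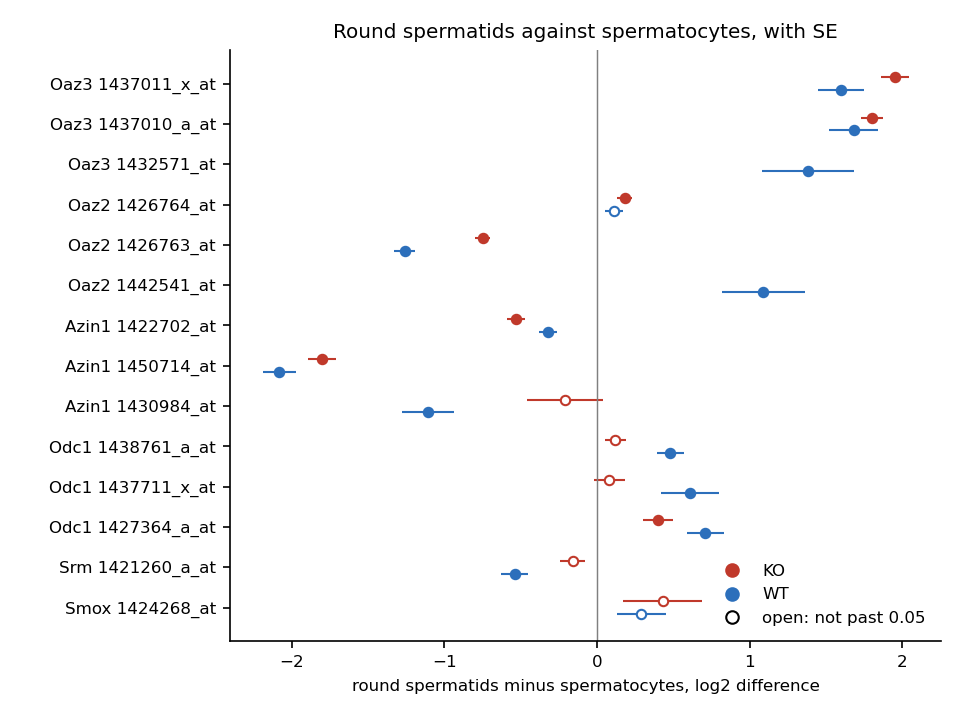
Difference between round spermatids and spermatocytes in log2(signal + 16) for each polyamine and antizyme probe set tested, with KO drawn above WT; bars are SE and open points did not pass an adjusted p of 0.05. Oaz3 is higher in round spermatids in both genotypes, Azin1 1450714_at is lower in both, and Oaz2 1426763_at and 1442541_at go opposite ways in WT.

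GRTH IP was compared with IgG IP to ask which of these RNAs were recovered with the helicase. None of the 14 polyamine probe sets tested passed with limma and 0 had an unadjusted p under 0.05; over all probe sets 0% passed and 2.28% had an unadjusted p under 0.05. The median was -0.16 over the polyamine probe sets and 0.11 over all. Oaz3 at 1437011_x_at gave 56031 and 63583 in the GRTH IP and 54394 and 96822 in the IgG IP. Both GRTH IP values lay between the IgG IP values (-0.28 ± 0.70, adjusted p = 0.999). Azin1 at 1422702_at gave 2737 and 2883 in the GRTH IP and 1207 and 2003 in the IgG IP, and Smox gave 185 and 132 in the GRTH IP and 389 and 386 in the IgG IP. Both had groups that did not overlap, with differences of 0.85 ± 0.69 for Azin1 and -1.22 ± 0.68 for Smox (adjusted p = 0.999 each). Oaz2 1426763_at and 1442541_at, Azin1 1450714_at and Odc1 1427364_a_at did not overlap either. Nor did the dim Oaz3 probe sets 1454279_at and 1429341_at, which were below the filter on low values here. How often groups of 2 arrays separate over all probe sets was not counted, so nothing is concluded from these separations. The 2 GRTH IP arrays differed from each other with an SD of 1.403 and the 2 IgG arrays with one of 1.223, and an SE near 0.7 leaves differences of the size seen in purified cells undetectable in this comparison.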

How the data were processed

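Per the submitters' processing notes the deposited signal intensities came from GCOS, Affymetrix's array software, with a version not given in the sources used here. The authors' intensity columns had a trimmed mean of 500 on 24 arrays, while 4 polysome columns were unscaled (WT 168 and 54.5, KO 130 and 29.8), so each array was rescaled to 500, trimming 0.02 of the values from either end. The fixed plan had kept the authors' scale. Arrays measure relative brightness, and their number limits the precision.

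Of 45101 probe sets 64 were controls, 34945 had 1 symbol, 932 several and 9160 none; symbols came from the platform annotation, and 0 of 34741 found in RefSeq changed. Each comparison took the probe sets at or above the median mean of its own arrays and was fitted alone by the lmFit and eBayes functions of limma (3.58.1; R 4.3.3, data.table version 1.17.8), with Benjamini-Hochberg adjustment, after a test of the code on simulated data. Samples were grouped by title; for 4 of them the description names another group. Every polyamine probe set was described; of 25 other pathway genes, counts and a few named ones; for likeness, the 5 genes (Oaz3) or 3 genes (others) of highest correlation. Members, lists and motifs were chosen with earlier results of these data known.

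Same-numbered arrays deviated together in polysome RNA (correlations of deviations 0.35, 0.567 and 0.594), in spermatocytes (0.147 to 0.19) and in KO round spermatids with KO spermatocytes (0.102 to 0.14), which the data and not the labels show. In the last of these, the arrays numbered 3 did not match each other best. The correlations were 0.387 between GRTH IP and IgG IP and 0.0566 to 0.112 between KO and WT round spermatids, and in both each array matched its same-numbered one best. They were 0.0923 to 0.112 between WT round spermatids and WT spermatocytes, where the arrays numbered 3 again did not match best, and -0.00505 in the Leydig fraction. Alternatives were other pseudocounts (4 and 64), quantile normalization, median centring, the deposited scale, no filter, 1 probe set per gene, array weights, the replicate block, all 24 arrays but the IP ones in 1 fit, averaging of similar arrays, and leaving out arrays. Single calls were followed through them for the polyamine probe sets only. Those of the other pathway genes, such as Azin2, Satl1, Oaz1 and Dhps, were not. Figures used matplotlib 3.10.9, pandas 2.3.3 and numpy 2.4.6 in Python 3.11.15.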

Additional observations from a re-analysis of the deposited data

Results flagged for a closer look

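Of 38 groups of 4 spermatocyte arrays checked, 1 had an array far from the others, and chance marks about 1 in 20: Srm in WT spermatocyte array 3 gave 317, where the other WT arrays gave 350 to 354.

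The KO effect differed between round spermatids and spermatocytes, by limma's test of the difference itself, at 5 probe sets. It was 0.51 higher for Oaz2 1426763_at (adjusted p = 0.000641), 0.38 higher for Srm (adjusted p = 0.0274) and 0.90 higher for Azin1 1430984_at (adjusted p = 0.0493). For Odc1 1438761_a_at it was -0.36 (adjusted p = 0.0295) and for Azin1 1422702_at -0.21 (adjusted p = 0.0472). The Azin1 1430984_at value came from 486, 478 and 346 in KO and 306, 319 and 472 in WT round spermatids, and from 362, 400, 660 and 656 in KO and 920, 785, 670 and 808 in WT spermatocytes. With the similar arrays averaged in both cell types none of the 5 passed (adjusted p 0.104 to 0.34). The KO effect on Oaz3 1437011_x_at was lower in polysome RNA than in round spermatids by -2.63 (adjusted p = 0.0258).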

How the results depend on the processing

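Array number, similarity of arrays within groups and the wide spread of polysome and IP arrays limit these results. Over 2824 values of single probe sets under an alternative, 2522 stayed on their side of the threshold, 221 lost a call, 67 gained one and 14 turned round. The 2522 include 97 that changed sign without being called either way. The cause of the changes below was not tested unless the alternative's own construction shows it.

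Probe sets called in polysome RNA (2) became 0 on the deposited scale, 1 with 1 probe set per gene, 4 with array weights (a fit that stopped before converging) and 7 in the fit of 24 arrays. Without the arrays of conflicting description only 1 WT polysome array is left, so no count is given. In spermatocytes 4 became 2 with median centring, no filter, 1 probe set per gene, 24 arrays or averaged arrays. In round spermatids 9 became 5 with no filter, 4 with 1 probe set per gene and 3 with averaged arrays. In the Leydig fraction 9 became 5 with 1 probe set per gene and 3 with 24 arrays. Round spermatids against spermatocytes gave 3 (KO) and 4 (WT) with 1 probe set per gene. The WT Leydig fraction against germ cells gave 5 with no filter and 3 with 1 probe set per gene, and WT polysome RNA against germ cells 4 with 1 probe set per gene and 6 with averaged spermatocyte arrays. The difference of KO effects between round spermatids and spermatocytes gave 3 with no filter or 1 probe set per gene, 1 with median centring, 24 arrays or averaged spermatocyte arrays, and 0 with both cell types averaged. That between polysome RNA and round spermatids gave 2 with a pseudocount of 64, quantile normalization, median centring, array weights or the replicate block, 3 with 24 arrays, and 0 on the deposited scale, with no filter or with round spermatid arrays averaged.

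Leaving out 1 array gave 2 to 2 calls in polysome RNA, 4 to 5 in spermatocytes, 5 to 9 in round spermatids, 8 to 9 in the Leydig fraction, 0 to 0 in the IP, 6 to 8 and 11 to 12 for round spermatids against spermatocytes in KO and WT, 3 to 10 and 7 to 10 for the Leydig fraction and polysome RNA against germ cells, and 1 to 5 and 0 to 2 for the differences of KO effects. The replicate block gave 3 calls in polysome RNA, 6 in spermatocytes (adding Oaz2 1442541_at, adjusted p = 0.0211) and 6 for KO round spermatids against spermatocytes (ending that of Oaz2 1426764_at, 0.0579). It gave 8 calls in round spermatids and 12 for WT round spermatids against spermatocytes. The correlations of same-numbered arrays were low there (0.0566 to 0.112 and 0.0923 to 0.112), as they were for KO round spermatids against spermatocytes (0.102 to 0.14). In the Leydig fraction, where they did not deviate together, it gave 9. Pairing was not examined for the Leydig fraction and polysome RNA against germ cells, where the block gave 8 and 7 calls. Nor was it examined for the difference of KO effects between round spermatids and spermatocytes, where the block gave 7. There it made Oaz3 1437011_x_at (adjusted p = 0.0289), Odc1 1437711_x_at (0.0171) and Odc1 1427364_a_at (0.0129) pass and ended the call of Azin1 1430984_at (0.115).

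Values that turned round were, in KO against WT Leydig fractions, Odc1 1437711_x_at 0.03 with quantile normalization, Oaz2 1426763_at -0.16 with median centring and Azin1 1430984_at, which ran from -0.26 to 0.18 on leaving out 1 array. With quantile normalization Odc1 1438761_a_at was 0 in WT round spermatids against spermatocytes and 0.07 in WT polysome RNA against germ cells, and Oaz3 was 0.52 and 0.34 in the WT Leydig fraction against germ cells. In WT polysome RNA against germ cells, median centring gave Oaz2 1426763_at -0.05 and Azin1 1422702_at -0.33, and the deposited scale gave Oaz3 1437011_x_at -1.02, Oaz2 1426763_at -1.06, Azin1 1422702_at -1.33, Azin1 1450714_at -0.35 and Srm -0.57.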

Other observations

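The genes of hypusine synthesis, which uses spermidine to modify the translation factor eIF5A, were measured by several probe sets that did not all agree. At its brightest probe set Dhps, deoxyhypusine synthase, differed between KO and WT by -0.37 ± 0.32 in polysome RNA, 0.08 ± 0.07 in spermatocytes and 0.06 ± 0.08 in round spermatids (adjusted p = 0.636, 0.405 and 0.567). At 1434004_at, another Dhps probe set, the difference was 0.16 in polysome RNA and 0.08 in spermatocytes (adjusted p = 0.832 and 0.348), while it was higher in KO round spermatids by 0.56 and in the KO Leydig fraction by 0.66 (adjusted p = 0.00499 and 0.00665). The KO effect at 1434004_at differed between round spermatids and spermatocytes by 0.48 (adjusted p = 0.00365). Dohh, deoxyhypusine hydroxylase, differed by 0.37 ± 0.29, 0.04 ± 0.05 and 0.02 ± 0.10 (adjusted p = 0.594, 0.577 and 0.872), and Eif5a by 0.21 ± 0.34, 0.07 ± 0.16 and -0.04 ± 0.13 (adjusted p = 0.822, 0.792 and 0.824). In the Leydig fraction the brightest probe sets of Dhps and Dohh were higher in KO by 0.34 and 0.11 (adjusted p = 0.00216 and 0.0266), and Eif5a differed by -0.02 (adjusted p = 0.559).

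Over the 10 group means, the genes closest to the other polyamine genes by Pearson correlation of log2 values were as follows, as descriptions over 10 points that share arrays. Ngfr, Lpcat4 and Pacs1 were closest to Oaz2 1426764_at (0.993, 0.984 and 0.983), and Ppm1b, Lrrc27 and Aqp11 to Odc1 1438761_a_at (0.964, 0.952 and 0.949). Ifitm3, Tceal8 and Lasp1 were closest to Sat1 (0.989 each), Lrp10, Mgat4b and Stk24 to Smox (0.984, 0.981 and 0.981), and Ctbp1, Txnl4a and Vta1 to Srm (0.952, 0.95 and 0.949). Azin1 1422702_at had the fewest close genes, with AW549877, Rbbp5 and Slc19a2 at 0.916, 0.912 and 0.912 and 6 of 9096 genes above 0.9, against 280 of 9097 for Sat1.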
